A study of Mus musculus with 9 samples.

Results

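The genes described here belong to the Schlafen and Ifi200 families, a pair of mouse gene families whose members are induced by interferons. The 10 genes chosen were Slfn1, Slfn2, Slfn3, Slfn4, Slfn5, Slfn8, Slfn9, Ifi203, Ifi204 and Ifi207. A gene was taken where the platform annotation gave a probe set 1 gene symbol and that symbol was on the list, which found 9 of the 10 among 19938 genes in all. Each of the 9 had 1 such probe set. Ifi204 had no probe set of its own, because its probe set is also annotated to Ifi211. The genes were chosen by their measured difference between the 2 groups compared here, so that difference is given for them as a description and not as a test.

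RNA levels were read on Affymetrix Mouse Gene 1.0 ST arrays, which carry short probes spread along each transcript, with 1 array for each of 9 independent preparations of back skin cells from mice at postnatal day 4. The 4 SKP arrays (replicates 3, 4, 5 and 6) hold skin-derived precursor cells, taken as floating spheres of their first passage in culture. The 5 Sox2-sorted arrays (replicates 2, 16, 17, 18 and 20) hold cells sorted fresh as EGFP-positive and CD34-negative from Sox2:EGFP mice, whose green fluorescent protein reports Sox2. Sox2 in neonatal skin marks the dermal papilla, the mesenchymal core of the follicle's bulb. The labels give no mouse strain, treatment or genotype beyond the reporter, and the groups differ in culture, in sorting and in the cells taken, whose effects cannot be told apart. The comparison relates to the question in the series title, how colony-forming precursors of the skin relate to cells of the hair follicle.

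Schlafen genes lie in 1 cluster and fall into short, intermediate and long forms. The short and intermediate forms hold the domain shared by the whole family, and the long forms add a part that resembles nucleic acid helicases. Family members have been linked to restraint of cell proliferation, above all in lymphocytes, and to cleavage of transfer RNA and restriction of viruses. The Ifi200 genes, also called PYHIN genes, encode proteins with a HIN domain that binds DNA, most of them joined to a pyrin domain, and Aim2 of this family starts an inflammasome when it meets DNA in the cytosol. In both families many genes are switched on through the interferon-stimulated response element (ISRE), a promoter sequence bound by interferon regulatory factors.

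Values are log2 RMA levels, in which 1 unit is a 2-fold difference in probe signal, and all differences are SKP minus Sox2-sorted. The median level over all genes was between 7.15 and 7.30 on every array. In several lists of cell type markers 2 of the sorted arrays, replicates 2 and 20, differed from the rest of their group. The mean level over 12 keratinocyte genes was 6.33 to 6.68 in SKPs, against 10.14 on sorted replicate 2, 11.73 on replicate 20 and between 9.22 and 9.41 on the other 3. The mean over 15 dermal papilla genes was 7.29 to 7.41 in SKPs, against 10.26 on sorted replicate 2, 9.67 on replicate 20 and between 11.22 and 11.38 on replicates 16, 17 and 18. The sorted samples thus carried the papilla markers of the cells Sox2 marks, and keratinocyte markers beside them. In the list of 10 SKP and neural crest markers 1 gene, Fn1, was called higher in SKPs. The 4 called lower, and so higher in the sorted cells, were Sox2, Sox10, Ngfr and Pax3. Over all genes 20.2% were called higher and 16.9% lower. Sox2 was among the 4, at 6.16 ± 0.27 in SKPs (SD, n = 4) and 8.69 ± 0.41 in the sorted cells (n = 5), which were sorted on it. Some of the results that these 2 arrays move are given with and without them.

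8 of the 9 genes were higher in SKPs without overlap, meaning that every SKP array lay above every sorted array. Of all genes 18.5% had this property. 8 of the 9 also passed an adjusted p of 0.05 in the limma fit over all genes, which called 20.2% of genes higher and 16.9% lower. Since the genes were chosen with this contrast in view, nothing is read from either count. The median difference over the 9 genes was 3.33, and over all genes it was 0.07. The differences reached from 0.24 for Slfn1 to 5.99 for Ifi203. Among the 9, 7 genes were at least 2-fold higher, as 5.57% of all genes were, and 5 at least 8-fold, as 0.567% were. In the ranking of all 19938 genes by difference Ifi203 stood at position 4 and Ifi207 at position 7, whereas Slfn4 stood at position 2123 and Slfn1 at position 5448. Fewer cells of a type and less RNA per cell cannot be told apart in these bulk samples.

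**Figure D1:**
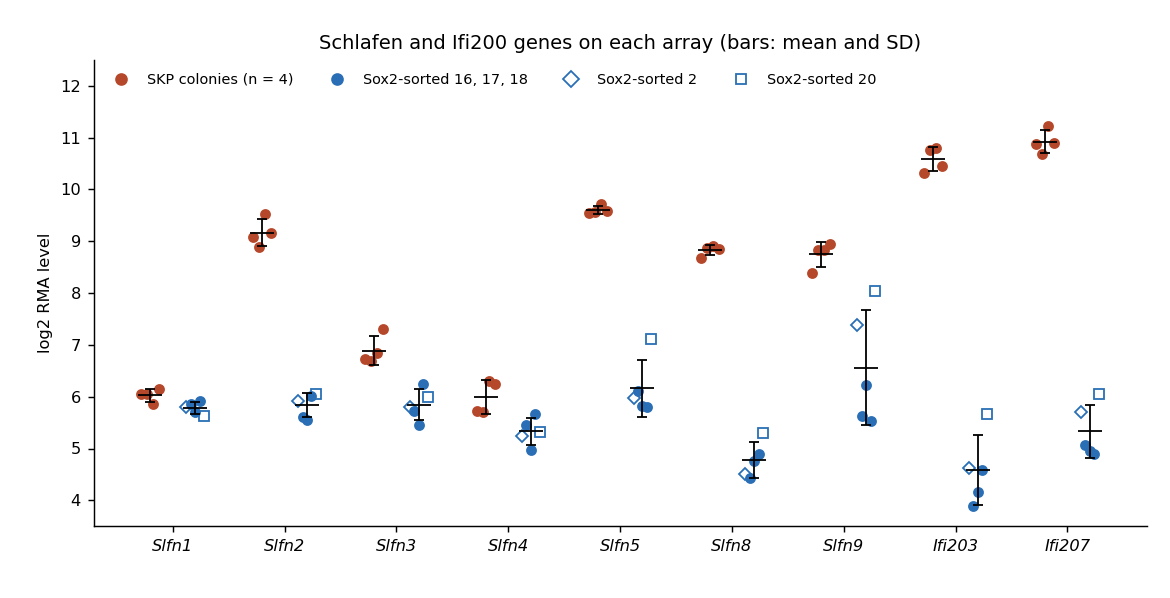
Log2 RMA level (y axis) of the 9 genes (x axis) on each array, SKP arrays in red at the left of each gene and Sox2-sorted arrays in blue at the right, with sorted replicate 2 as an open diamond and replicate 20 as an open square. Black bars are the mean and SD of each group. The groups are far apart for Ifi203 and Ifi207, overlap for Slfn1, and for Slfn9 sorted replicates 2 and 20 lie above the other 3 sorted arrays.

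Most sorted levels of these genes were low. The SKP mean was under 6.31, the upper limit of the lowest tertile of genes by mean level, for Slfn1 and Slfn4, and the sorted mean was under it for 8 of the 9 genes, all but Slfn9. Without a detection call for each probe set it is not known which of these levels exceed background.

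**Figure D2:**
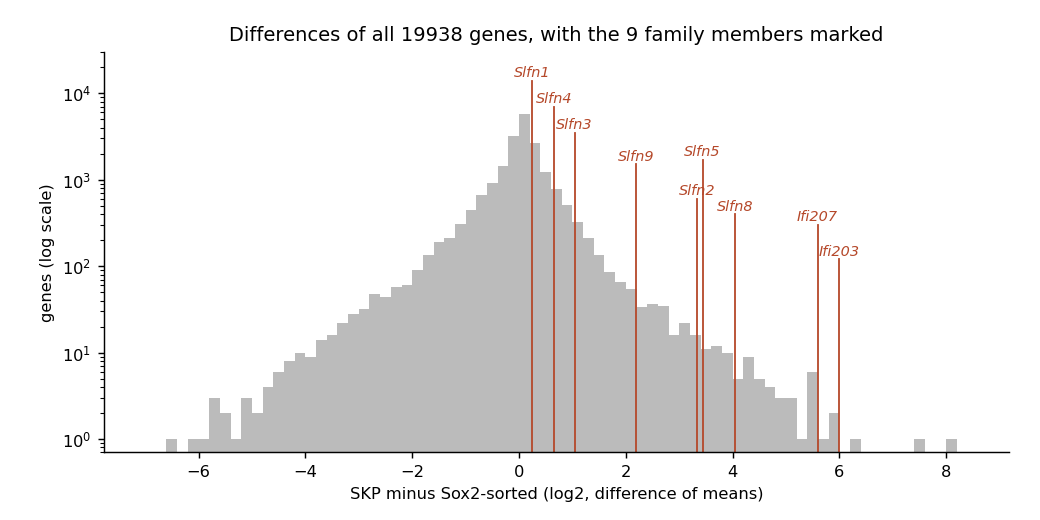
Histogram of the difference between SKP and Sox2-sorted means (x axis, log2) over all 19938 genes (y axis, number of genes on a log scale), with a red line at the difference of each of the 9 family genes. Ifi203 (5.99) and Ifi207 (5.59) stand in the far right tail and Slfn1 (0.24) stands in the centre.

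The short Schlafen genes Slfn1 and Slfn2 were unlike each other. Slfn2 is known from a mouse mutant whose T cells lose quiescence. Its level was 9.07, 8.90, 9.52 and 9.16 on SKP replicates 3, 4, 5 and 6, against 5.91, 5.62, 5.56, 6.02 and 6.05 on sorted replicates 2, 16, 17, 18 and 20. The lowest SKP array stood 2.85 above the highest sorted array, and the sorted arrays lay close together whether or not replicates 2 and 20 were among them. The difference was 3.33, or 10.1-fold. Slfn1, the founding member, which slows thymocyte growth when overexpressed, was at 6.05, 6.04, 5.85 and 6.15 in SKPs, against 5.80, 5.85, 5.70, 5.92 and 5.62 in the sorted cells. Here the groups overlapped, with the lowest SKP array 0.07 below the highest sorted array, and the difference was 0.24, or 1.18-fold.

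The intermediate genes Slfn3 and Slfn4 were only modestly higher. Slfn4 is known as a gene of myeloid cells, induced there by interferon and by Toll-like receptors. It was at 5.72, 5.71, 6.30 and 6.24 in SKPs, against 5.25, 5.46, 4.97, 5.66 and 5.31 in the sorted cells, so the groups were separated by 0.06 and differed by 0.66 in their means. SKP replicates 5 and 6 were the higher pair. Slfn3, which has been studied in T cells and in the differentiation of rodent gut epithelium, was at 6.72, 6.69, 6.84 and 7.30 in SKPs, against 5.80, 5.72, 5.46, 6.25 and 6.00 in the sorted cells. SKP replicate 6 and sorted replicate 18 were the highest of their groups, and the difference was 1.04.

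Of the long genes, Slfn5 and Slfn8 varied least among the SKP arrays of all 9 genes. Slfn8, one of the mouse genes closest to human SLFN11, had 8.69, 8.87, 8.90 and 8.84 in SKPs, against 4.50, 4.43, 4.76, 4.89 and 5.31 in the sorted cells. Its difference of 4.05, or 16.5-fold, was the largest of the Schlafen genes, with an SD of 0.10 over the SKP arrays and 0.35 over the sorted arrays. Slfn5, a nuclear member induced by type I interferon, had 9.54, 9.56, 9.73 and 9.58 in SKPs, against 5.97, 6.10, 5.82, 5.80 and 7.12 in the sorted cells. Sorted replicate 20 stood alone among the sorted arrays, and the difference was 3.44, or 3.69 without sorted replicates 2 and 20.

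Slfn9 had the widest spread of the 9 genes among the sorted arrays. It was at 8.40, 8.83, 8.83 and 8.95 in SKPs, against 7.38, 5.62, 6.22, 5.53 and 8.04 in the sorted cells. Sorted replicates 2 and 20 lay 1.92 above the mean of the other 3, and replicate 20 came within 0.35 of the lowest SKP array. The difference was 2.19, or 4.57-fold, over all arrays and 2.96 without replicates 2 and 20. On the same 2 sorted arrays the keratinocyte list was higher, as given above. The mean of 10 dermal fibroblast genes was 11.85 to 12.01 in SKPs, against 11.52 on sorted replicate 2, 11.54 on replicate 20 and between 10.72 and 10.76 on replicates 16, 17 and 18. Their part in the Slfn9 values was not tested.

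The promoters of the long Schlafen genes are shown because they carry a match to the ISRE core within the RefSeq window of 250 bases before to 50 after the annotated gene start (build GRCm38.p6). The motif searched on both strands was GAAA, any 2 bases, then GAAA again, which reads TTTC, any 2 bases, TTTC on the other strand. Capitals mark the match, each stretch runs 5′ to 3′ on the strand of the gene, and all are 50 bases long. Slfn5 lies on the plus strand at chr11:82951927-82951976, Slfn8 on the minus strand at chr11:83020829-83020878 and Slfn9 on the minus strand at chr11:82991846-82991895. Slfn2, at chr11:83065062-83065111 on the plus strand, is given for contrast as the last 50 bases before its start, with no match in its window.
Slfn5: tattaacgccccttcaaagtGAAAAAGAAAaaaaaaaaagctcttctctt
Slfn8: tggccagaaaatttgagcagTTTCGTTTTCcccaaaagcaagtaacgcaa
Slfn9: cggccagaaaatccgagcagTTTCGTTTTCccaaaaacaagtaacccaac
Slfn2: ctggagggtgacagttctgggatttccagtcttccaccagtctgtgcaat
Slfn8 and Slfn9 hold the same 10 letters, from positions -48 and -45 relative to the annotated start, and share 37 of the 50 bases when compared position by position. Both also hold, on the antisense strand, the longer form in which CT follows the motif and which contains it; 0.303% of genes have it. The Slfn5 match begins at position -155 and runs into a stretch of A. Slfn8 has another annotated start, relative to which its match begins at -136.

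No match to the ISRE core was found in the windows of Slfn1, Slfn2, Slfn3 and Slfn4, which says only that these letters are not in those windows. Slfn2, with its 10.1-fold difference, is thus without the letters found in the long genes. A match was found in 5 of the 9 genes and in 7 of 12 relatives with a window, against 3.99% of 27025 genes with a window. A second motif, the gamma-activated site TTCNNNGAA, which reads the same on both strands, was found in 0 of the 9, in 1 of the 12 relatives (Ifi202b) and in 9.55% of all genes.

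**Figure D3:**
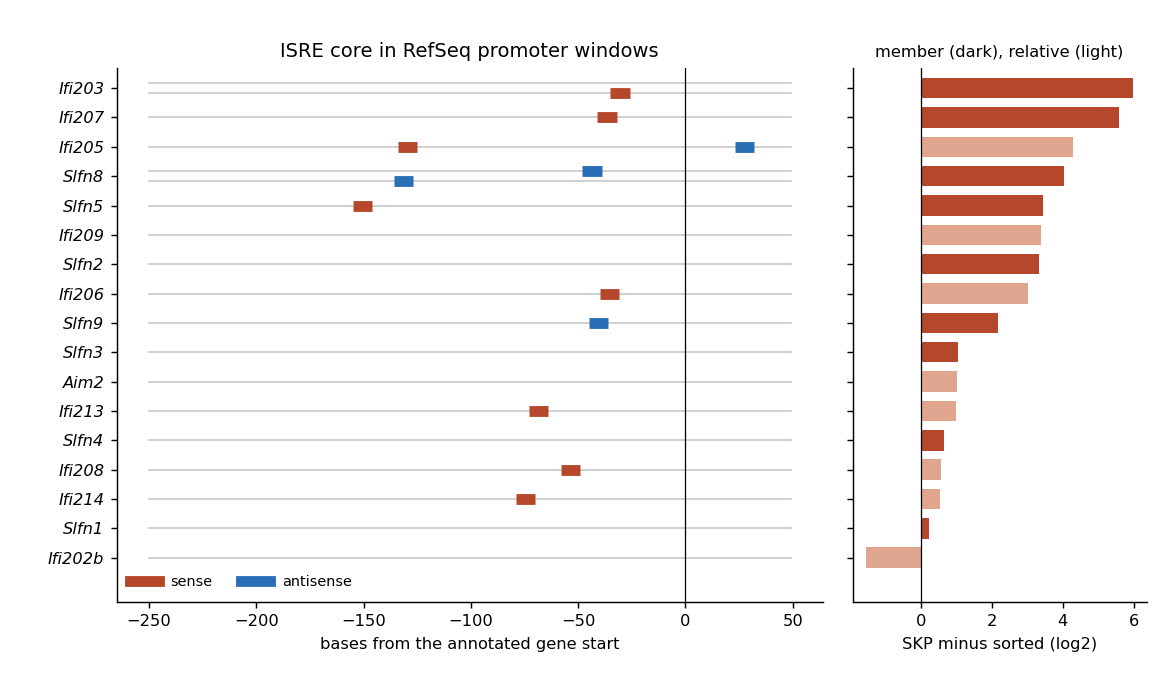
Left, position of ISRE core matches in the promoter windows of family genes (x axis, bases from the annotated gene start, a grey line per window; red for the sense and blue for the antisense strand). Right, the difference between SKP and Sox2-sorted means (log2) of the same genes, members dark and relatives light, sorted from the highest. Matches lie close to the start in Ifi203, Ifi207, Slfn8 and Slfn9, and also in genes with small differences such as Ifi208 and Ifi214.

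The Ifi200 genes had the largest differences. Ifi203, a nuclear family member, was at 10.32, 10.75, 10.79 and 10.45 in SKPs, against 4.63, 3.89, 4.17, 4.59 and 5.67 in the sorted cells. Ifi207, a pyrin and HIN domain protein, was at 10.88, 10.69, 11.22 and 10.89 in SKPs, against 5.71, 5.06, 4.95, 4.90 and 6.05 in the sorted cells. For both genes the lowest SKP array lay 4.64 above the highest sorted array, which was replicate 20 in each case. The differences were 5.99 (63.5-fold) for Ifi203 and 5.59 (48.1-fold) for Ifi207, and 6.36 and 5.95 without sorted replicates 2 and 20. The probe set shared by Ifi204 and Ifi211 was at 11.08, 11.36, 11.38 and 11.17 in SKPs, against 5.38, 5.43, 5.81, 5.04 and 6.39 in the sorted cells. It cannot be assigned to either gene, and other close relatives may share probes as well.

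The promoters of Ifi203 and Ifi207 hold an identical ISRE core, and those of the relatives Ifi206 and Ifi213 are set beside them because they hold it too. All 4 lie on the minus strand, at chr1:173942498-173942547 for Ifi203, chr1:173741821-173741870 for Ifi207, chr1:173491329-173491378 for Ifi206 and chr1:173599316-173599365 for Ifi213. Capitals again mark the match.
Ifi203: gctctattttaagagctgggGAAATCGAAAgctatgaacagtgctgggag
Ifi207: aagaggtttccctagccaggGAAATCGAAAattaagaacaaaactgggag
Ifi206: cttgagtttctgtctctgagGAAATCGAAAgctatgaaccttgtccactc
Ifi213: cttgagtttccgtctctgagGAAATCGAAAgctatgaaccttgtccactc
The match begins at -35 in Ifi203 and at -41 in Ifi207, relative to the annotated start. Ifi203 has another annotated start, whose window holds no match. The stretches of Ifi206 and Ifi213 differ at 1 of 50 bases, with the match from position -40 in Ifi206 and -73 in Ifi213. Ifi206 differed by 3.02 between the groups and Ifi213 by 0.98, with the means of Ifi213 under 6.31 in both groups. The part of these sequences in the levels was not tested. Ifi203 and Ifi207 share 32 of 50 bases and had nearly equal differences. Ifi214, whose stretch is not shown, holds the identical core from position -79 and had a difference of 0.54 (limma adjusted p = 0.107).

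Family genes outside the chosen 10 did not all go the same way. Of 10 relatives with a probe set of their own, 7 rose in SKPs, 1 fell and 2 did not pass the test (limma, adjusted p under 0.05), against 20.2% and 16.9% of all genes called higher and lower. The median difference was 1.00 over the 10 relatives and 0.07 over all genes. Ifi205, a gene studied in macrophages, rose most, to 8.71 ± 0.61 in the 4 SKP samples (SD) against 4.43 ± 0.52 in the 5 sorted samples, a difference of 4.29 (SE 0.32, limma adjusted p = 5.49e-06). Ifi209 rose by 3.39 (adjusted p = 2.13e-05), Ifi206 by 3.02 (adjusted p = 1.11e-06) and the pseudogene Slfn10-ps by 2.59 (adjusted p = 4.62e-05). Ifi213 rose by 0.98 (adjusted p = 3.99e-04) and Ifi208 by 0.57 (adjusted p = 0.0105), although the mean of Ifi208 was under 5 in both groups. Ifi214 had a difference of 0.54 (adjusted p = 0.107), which passed without SKP replicate 4 (0.76, adjusted p = 0.0239), and Slfnl1, a distant relative on another chromosome, of -0.11 (adjusted p = 0.354).

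Aim2 and Ifi202b, which have opposed roles in mice, were the least certain of the calls. Aim2, the DNA sensor of the inflammasome, was at 6.47, 6.02, 7.55 and 6.44 in SKPs, against 5.69, 5.32, 5.39, 5.22 and 6.39 in the sorted cells, and its groups overlapped. Its difference of 1.02 passed the test (limma adjusted p = 0.0306) but not on leaving out any one of SKP replicates 3, 5 and 6 or sorted replicates 16, 17 and 18 (adjusted p of 0.0541 to 0.0669). Without both sorted replicates 2 and 20 the difference of Aim2 was 1.31 (adjusted p = 0.00704). Ifi202b, whose product lacks the pyrin domain and restrains Aim2, was at 3.95, 3.91, 4.09 and 4.27 in SKPs, against 5.88, 4.85, 4.85, 4.97 and 7.44 in the sorted cells. It was the only one of the 19 measured family genes that fell in SKPs, by 1.54 on the log2 scale (limma adjusted p = 0.0299). Leaving out any SKP array or sorted replicate 2 ended that call (adjusted p of 0.0567 to 0.0731), it fell by 1.08 without sorted replicate 20, and without both sorted replicates 2 and 20, the highest for this gene, it fell by 0.84 (adjusted p = 1.35e-04). Those replicates are also the highest in the keratinocyte list, whose part was not tested.

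The genes with large differences are neighbours in the Schlafen cluster. In the order of the RefSeq gene table (GRCm38.p6) Slfn5, Slfn9, Slfn8, Slfn10-ps and Slfn2 follow each other, with differences of 3.44, 2.19, 4.05, 2.59 and 3.33. Slfn1, Slfn4 and Slfn3 come next, with 0.24, 0.66 and 1.04. In the Ifi200 cluster Ifi206, Ifi214, Ifi213, Ifi209, Ifi208 and Ifi207 follow each other, with differences of 3.02, 0.54, 0.98, 3.39, 0.57 and 5.59, and Ifi202b, which fell, lies between Ifi203 and Ifi205.

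Genes flanking the clusters differed little. Of the 5 nearest protein-coding genes on each side, 9 of 10 were measured at each cluster. Over all genes 20.2% were called higher and 16.9% lower. At the Schlafen cluster 2 of 9 rose and 0 fell, with differences of -0.16 to 0.58. These were Ap2b1, a clathrin adaptor subunit, by 0.58 (limma adjusted p = 1.84e-04), and Nle1 by 0.28 (adjusted p = 0.0237), which lost its call without SKP replicate 3 or 4 or sorted replicate 16 or 17 (adjusted p of 0.0529 to 0.0618). At the Ifi200 cluster 0 of 9 were called by limma, and 0 had an unadjusted p under 0.05, with differences of -0.28 to 0.12. All of these but Cadm3 had means under 6.31, the limit of the lowest tertile, in both groups. At such levels a lack of calls says little about where the differences end.

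**Figure D4:**
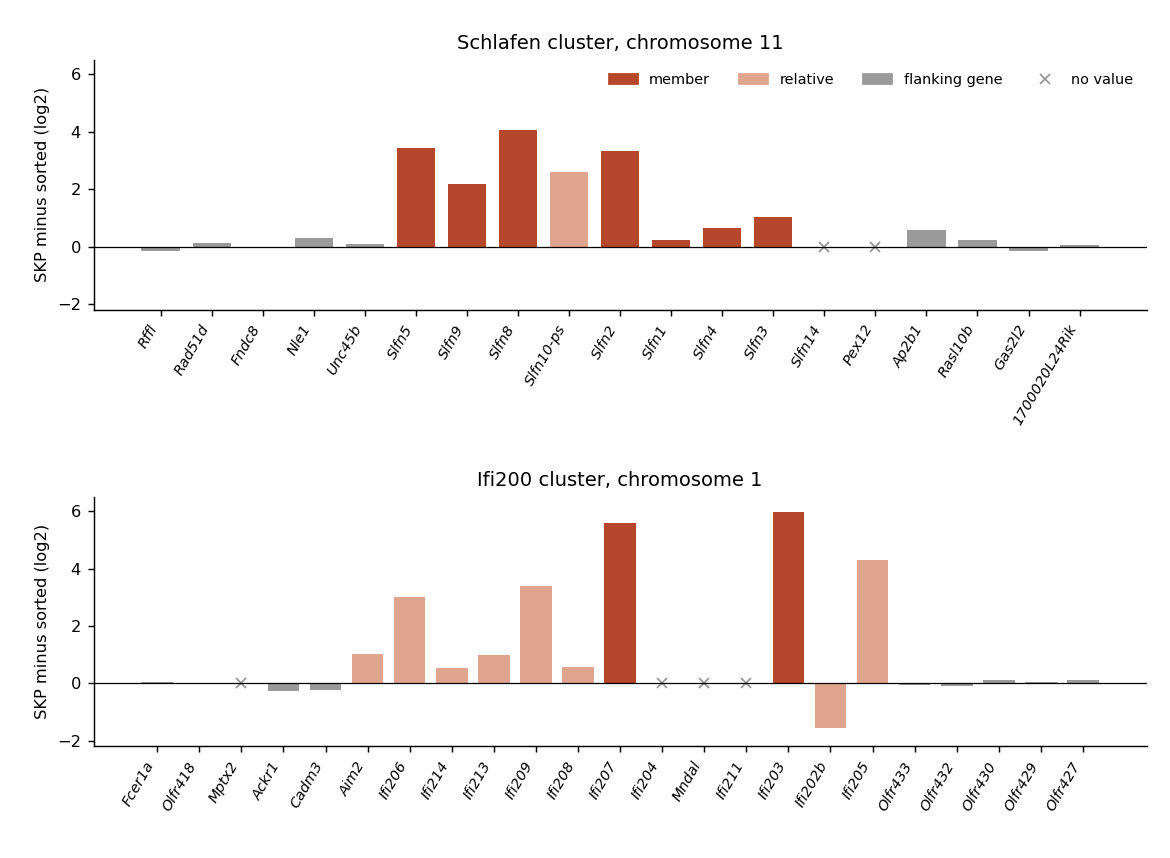
Difference between SKP and Sox2-sorted means (y axis, log2) for the genes of the Schlafen cluster (top) and the Ifi200 cluster (bottom) in chromosomal order (x axis, order only and not to distance), with the 5 nearest protein-coding genes on each side in grey. Members are dark, relatives light, and a cross marks a gene with no value, Ifi204 included. Differences above 2 stop sharply at the last family gene on the left of the Schlafen cluster, where Unc45b is at 0.10 beside Slfn5 at 3.44. The mean level of Unc45b was under 6.31 in both groups.

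Several factors that act on the ISRE rose in SKPs and Irf1 fell, and the interferon genes, most of them at low levels, were not called. In the list of interferon receptors and signalling genes 10 of 21 rose and 2 fell, with a median difference of 0.31. Over all genes 20.2% were called higher and 16.9% lower. Usp18, which dampens signalling from the type I receptor, rose by 4.71 (limma adjusted p = 9.31e-09) and Irf7, the factor that amplifies interferon induction, by 4.40 (adjusted p = 6.52e-09). Stat2 and Irf9, which act together at the ISRE, were chosen after their values were seen and rose by 2.73 (adjusted p = 4.36e-07) and 2.08 (adjusted p = 1.97e-07). Socs3, an inhibitor of cytokine signalling, fell by 2.50 (adjusted p = 1.12e-07) and Irf1 by 1.09 (adjusted p = 2.52e-04).

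Of 12 interferon ligand genes 0 were called by limma, and 0 had an unadjusted p under 0.05. Over all genes 20.2% were called higher and 16.9% lower. All of the ligand genes but Ifna2, Ifna5, Ifnz and Ifnl2 had means under 6.31, the limit of the lowest tertile, in both groups. At such levels a lack of calls says little about whether these genes differ. The list mean was 5.46 to 5.84 in SKPs and 5.47 to 5.77 in the sorted cells. The member with the highest mean, Ifnz, had a difference of -0.46 (adjusted p = 0.247). It passed the test as lower without sorted replicate 20 (-0.69, adjusted p = 0.0192) and without both sorted replicates 2 and 20 (-0.89, adjusted p = 1.72e-04).

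Other interferon-induced effectors differed in the same direction as the family genes. Of 33 measured, 32 rose and 1 fell, against 20.2% and 16.9% of all genes, with a median difference of 2.42. Ifit1 (5.80, limma adjusted p = 3.69e-08) and Ifit3 (5.55, adjusted p = 9.66e-09), which bind viral RNA or assist in this, rose most, and Ifitm1 fell by 1.50 (adjusted p = 1.08e-04). This list was drawn up with like results of these data known, so its direction is no separate evidence.

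Among 15 genes of cytosolic DNA sensing and the inflammasome, the pathway of Aim2, 8 rose and 0 fell, with a median of 0.46. The shares over all genes were 20.2% called higher and 16.9% lower. Casp1, the inflammasome protease, rose by 4.39 (adjusted p = 9.30e-09) and Sting1, the adaptor of cytosolic DNA sensing, by 3.43 (adjusted p = 3.71e-07). The inflammasome adaptor Pycard, chosen after its values were seen, had a difference of -0.07 (adjusted p = 0.487), and its cytokine substrates Il1b and Il18, also chosen so, had 0.07 (adjusted p = 0.557) and 0.22 (adjusted p = 0.241).

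**Figure D5:**
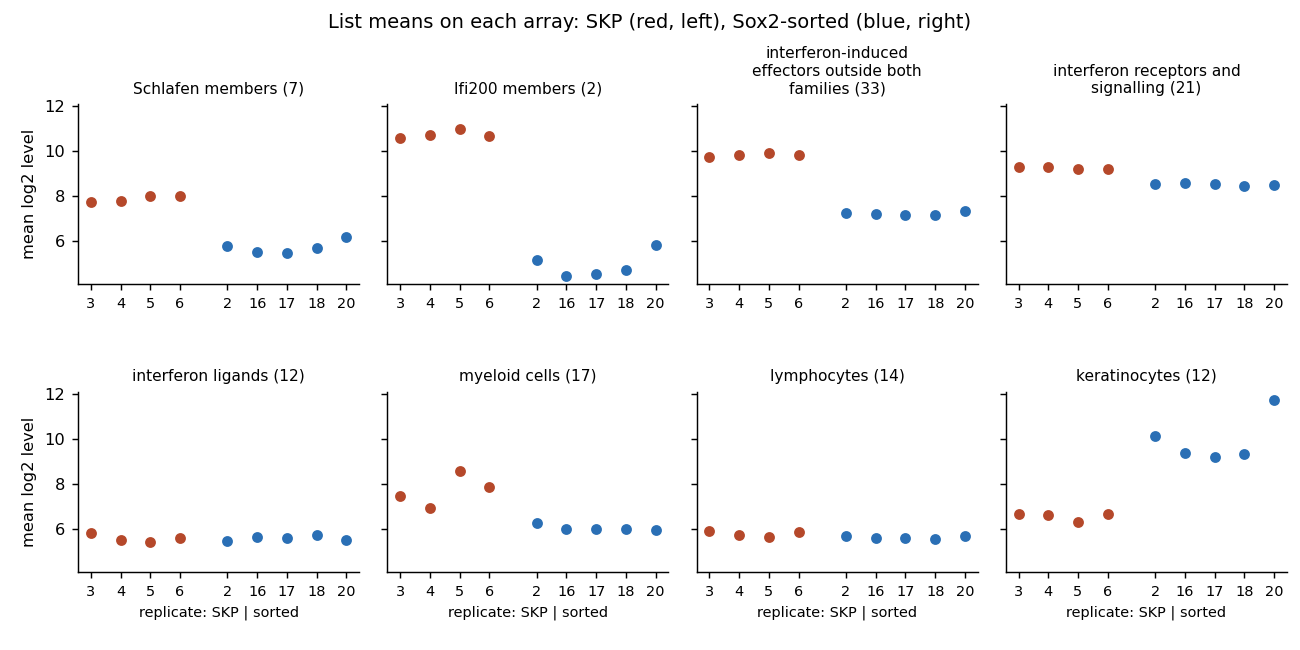
Mean log2 level of each gene list (y axis, number of genes in brackets) on each array, SKP replicates in red at the left and Sox2-sorted replicates in blue at the right of each panel. Family members and interferon-induced effectors are higher on every SKP array, interferon ligands and lymphocyte genes lie under 6 on every array, myeloid genes vary among SKP arrays with the maximum on replicate 5, and keratinocyte genes are highest on sorted replicate 20.

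Both families are known for expression in immune cells, so markers of such cells were set beside them. Of 17 measured myeloid markers 15 rose in SKPs and 0 fell, with a median difference of 1.51. The shares over all genes were 20.2% called higher and 16.9% lower. The list mean was 7.50, 6.95, 8.57 and 7.88 on SKP replicates 3, 4, 5 and 6, against 5.99 to 6.30 in the sorted cells. Lyz2, lysozyme of myeloid cells, rose by 4.61 (limma adjusted p = 3.32e-05) and Cd53, a tetraspanin of leukocytes, by 2.99 (adjusted p = 3.33e-04). Of 14 lymphocyte markers 3 rose, which is near the share of all genes, and 1 fell. The list mean was 5.68 to 5.94 in SKPs and 5.59 to 5.69 in the sorted cells. The 3 that rose were Thy1, also expressed by fibroblasts (1.31, adjusted p = 0.0158), Cd79b (0.78, adjusted p = 0.00658) and Ncr1 (0.37, adjusted p = 0.0116, chosen after its values were seen), and Cd3g fell by 0.35 (adjusted p = 0.0390). The Cd3g call was lost under median centring (adjusted p = 0.0549) and without SKP replicate 3, 4 or 5 or sorted replicate 16, 17 or 20 (adjusted p of 0.0585 to 0.109).

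The family genes divided in how they varied along with the myeloid markers within SKPs. From the lowest to the highest myeloid mean the arrays were replicates 4, 3, 6 and 5, and 16 of the 17 myeloid genes had this order. So did 3 of the 9 members (Slfn2, Slfn4 and Ifi207) and 2 of the 10 relatives (Ifi205 and Ifi209), against 6.37% of all genes. Among the 33 interferon-induced effectors 5 had it (Ifit2, Ifit3, Oasl1, Rsad2 and Ube2l6), or 15.2%. Between replicates 5 and 4 the myeloid mean differed by 1.62, Ifi209 by 1.70, Aim2 by 1.54, Ifi205 by 1.43 and Ifi214 by 1.20. Slfn2 differed by 0.62, Slfn4 by 0.59 and Ifi207 by 0.53. Slfn8 differed by 0.03, Ifi203 by 0.04 and Slfn9 by -0.0043, and the mean of the 33 interferon-induced effectors by 0.08. With 4 arrays this is a description, and the part of myeloid RNA in any of these levels was not tested.

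No array of either group was highest throughout. In SKPs replicate 5 was highest for 6 of the 9 genes and replicate 6 for the other 3. Among the sorted arrays replicate 20 held the highest value of its group for 6 of the 9 genes, and replicate 18 held it for the other 3, Slfn1, Slfn3 and Slfn4. Sorted replicates 2 and 20 both lay above the other 3 for Slfn9, Ifi203 and Ifi207, as they did for 22.6% of all genes. The SD within SKPs was 0.09 to 0.32 over the 9 genes, and within the sorted arrays it was 0.12 to 1.11.

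The genes with profiles most like Slfn8 and Ifi203, the members with the largest difference in each family, were found by the root mean square difference between profiles centred on their own mean over the 9 arrays. For Slfn8 the nearest were Sp100 (0.17), Hmga2 (0.18), Rtp4 (0.19), Rsad2 (0.21) and Mcoln2 (0.22). Sp100 encodes a nuclear body protein and Rsad2 an antiviral enzyme, whereas Hmga2 encodes a chromatin protein of proliferating mesenchyme. For Ifi203 the nearest were Ifit1 (0.36), Ifi207 (0.37), Saa3 (0.42), Ifit3 (0.43) and Ifit3b (0.45). Among Schlafen members Slfn5 was nearest to Slfn8, at position 26 of all genes, then Slfn2 at 34 and Slfn9 at 303. As computed, the measure takes in the size of the difference between the groups as well as the spread within them.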

How the data were processed

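The authors deposited log2 values, 1 per probe set and array, and per the submitters' processing notes RMA, Affymetrix Expression Console and limma were used, with no version or setting given. RMA adjusts background, normalizes by quantiles and summarizes probes. Of 35556 probe sets 21789 had 1 symbol and 1621 several. For genes with several probe sets the one with the highest mean over the 9 arrays was taken. All 19938 genes were fitted with limma 3.58.1 in R 4.3.3 (lmFit and eBayes, SKP minus Sox2-sorted, two-sided, Benjamini-Hochberg over all genes), a calculation tested on simulated data. The members, lists, named genes and alternatives, including the omission of sorted replicates 2 and 20, were chosen with earlier results of these data known. Named are the members, relatives, called flanking genes (the others by their range), up to 2 called genes per direction and list (the brightest where none was called), and the 5 nearest profiles of Slfn8 and Ifi203. The other lists gave, over 8 endothelial genes, 0 higher and 2 lower, over 12 keratinocyte genes 0 and 12, over 15 papilla genes 1 and 14, and over 10 fibroblast genes 6 and 1. The shares over all genes were 20.2% higher and 16.9% lower. Genes were matched by the annotation's symbols, and promoters came from RefSeq (GRCm38.p6), with 9 of 10 members found. The files name no genome build. The number of arrays limits the precision.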

Additional observations from a re-analysis of the deposited data

Results flagged for a closer look

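In 7 of 136 groups of arrays tested, 1 array stood apart from the rest by Dixon's gap over the range. Chance alone would pick about 5% of independent groups. These groups reuse the same 9 arrays, and list means stand beside some of their own genes. The count therefore cannot say whether any 1 of them arose by chance. Among family genes these were Slfn5 on sorted replicate 20, at 7.12 with the next sorted array at 6.10 (gap over range 0.770), and the mean of the 10 relatives on the same array, at 5.38 with the next at 4.94 (0.719). Other genes high on sorted replicate 20 were Saa3, at 6.27 with the next at 5.52 (0.872), and the keratinocyte gene Dsc3, at 11.99 with the next at 10.76 (0.786). The myeloid list mean was high on sorted replicate 2, at 6.30 with the next at 6.03 (0.864). Dsp was high on SKP replicate 4, at 7.27 with the next at 6.45 (0.877), and the keratinocyte list mean was low on SKP replicate 5, at 6.33 with the next at 6.65 (0.916).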

How the results depend on the processing

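For the 9 members all 142 values under the alternatives stayed within 1 SD of the reported difference, with none reversed. The SD used was that of single arrays within groups, pooled, and not the SE of the difference. For Slfn9 2.19 became 2.96 without sorted replicates 2 and 20, with an SE of 0.49 over all arrays. Some values could not change, since each member has 1 probe set to average. Limma's trend and robust options, and leaving out dim genes, also do not alter a gene's difference. The median over the 7 Schlafen genes, 2.19, was 3.33 with the lowest tertile of genes left out, which drops Slfn1 and Slfn4, 2.84 with array weights and 2.96 without both sorted replicates 2 and 20, and 1.93 to 2.56 on leaving out 1 array. The median of Ifi203 and Ifi207 was 5.67 to 6.16 under the alternatives. With array weights 6145 genes were called higher, against 4020, and under median centring 5296 were called higher and 2932 lower (64.4% of calls higher), against 4020 and 3366 (54.4%). Relatives called higher were 2 in place of 7 and called lower 0 in place of 1 without dim genes, and 0 to 1 were called lower on leaving out 1 array. Without both sorted replicates 4 signalling genes were called lower in place of 2, and 1 ligand, 1 DNA sensing gene and 1 Schlafen flanking gene in place of 0. Array weights gave 1 ligand higher and 1 lower, and 1 DNA sensing gene and 1 Schlafen flanking gene lower. Leaving out 1 array gave 0 to 1 ligands and 0 to 1 DNA sensing genes lower. Flanking Schlafen genes called higher were 4 in place of 2 under median centring and 1 to 3 on leaving out 1 array. Of 744 values of 47 other named genes, 702 kept direction and call, 38 lost the call and 4 gained it. The causes were not tested. No paired analysis was possible because the groups share no replicate number. Signal over background was not measured, which limits what the low sorted levels can show.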
